A study of Mus musculus with 6 samples.

Results

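The 34 genes described here make, move, sense and export cholesterol. They were chosen by name, with earlier results of these data known, from the 16894 genes listed in bulk RNA-seq of fibroadipogenic progenitors (FAPs). FAPs are mesenchymal stromal cells of skeletal muscle. All 34 were listed, and each had at least 0.5 CPM, the scaled read count used throughout, in all 6 libraries. The genes were taken in 5 steps, with 8 genes of the mevalonate pathway, 11 of squalene and sterol ring synthesis, 1 of sterol uptake and transport, 6 that control sterol regulatory element-binding protein (SREBP), and 8 of efflux, storage and the liver X receptors (LXRs).

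FAPs came from quadriceps, gastrocnemius and tibialis anterior muscle of C57BL/6 mice of both sexes, aged 3 to 6 months, and were sorted on magnetic beads as CD45-, CD31-, α7-integrin- and SCA-1+ cells. Both groups were grown in 20% fetal bovine serum, which carries lipoprotein cholesterol, with basic fibroblast growth factor at 3% oxygen. The senescent group (n = 3) received 20 μM etoposide, a topoisomerase II poison that breaks DNA, for 48 h and was then kept in normal medium for 5 days. The control group (n = 3) was non-senescent FAPs, and the sources used here do not state whether it received vehicle. No source says that replicates came from separate mice or cultures, so the p values measure the spread between these libraries, which may be technical.

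Cells build cholesterol from acetyl-CoA through mevalonate, farnesyl diphosphate, squalene and lanosterol. When membranes of the endoplasmic reticulum are poor in sterol, SCAP carries SREBP2 to the Golgi, where a pair of proteases releases its active part, which switches on genes of synthesis and uptake. When sterol is plentiful, INSIG proteins hold SCAP back, and oxysterols activate the LXRs, which switch on genes of efflux.

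Libraries held 41412179 to 59912520 reads on genes. Of the 6 FAP markers, 3 rose in senescent FAPs and 0 fell, and Pdgfra, the receptor that defines the lineage, was at 192 ± 58.4 CPM in control and 218 ± 35.7 CPM in senescent FAPs (SD, n = 3). Thy1, another surface marker of these cells, stood apart in replicate 1 of both groups, at 489 and 615 CPM against 41.3 to 73.6 CPM in the other libraries. Summed leukocyte markers were 3.91 to 7.61 CPM in control and 18.3 to 25.4 CPM in senescent libraries, from 4 listed genes of 6, all of which rose. Ptprc and Adgre1, which define leukocytes and macrophages, had no value here. The 4 endothelial markers summed to 18.0 to 38.4 CPM in control and 22.2 to 29.2 CPM in senescent libraries, most of it Tek, whose groups overlapped. Pecam1 rose, from a mean of 0.706 to 1.70 CPM, Kdr fell, from 4.05 to 2.2 CPM, and Cdh5 was too low to be tested. Only Itga7 of the myogenic markers and Fabp4 of the adipocyte markers had values, at 9.17 to 12.3 and 2.73 to 3.69 CPM in control and 15.8 to 23.6 and 5.06 to 5.81 CPM in senescent libraries.

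Cholesterol synthesis genes were lower in senescent FAPs and several genes of efflux were higher. Of the 34 genes, 22 fell and 6 rose (limma on log2(CPM + 0.5), Benjamini-Hochberg adjusted p under 0.05 over 14776 genes tested), where 24.3% of all genes tested fell and 21.8% rose. With log2 fold changes larger than 1 in size at p under 0.01 before adjustment, 15 of the 34 were lower, against 3.9% of all genes, and 5 were higher, against 6.93%. The 3 senescent libraries lay wholly below the 3 control libraries for 22 of the 34, against 30.9% of all genes. They lay wholly above for 6, against 26.5%. The list was chosen with earlier results of these data known, so these shares describe it and do not test it. The median log2 fold change was -0.83 over the 34 genes and -0.03 over all genes tested. Among calls, 21.4% were higher for the 34 genes and 47.3% for all genes. Division by library totals alone, without the authors' scaling, raised the median of all genes by 0.20 and moved these shares to 28.6% and 72.3%. Relative to the median of all genes, the median of the 34 was -0.79 with the authors' scaling and -0.78 without.

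**Figure D1:**
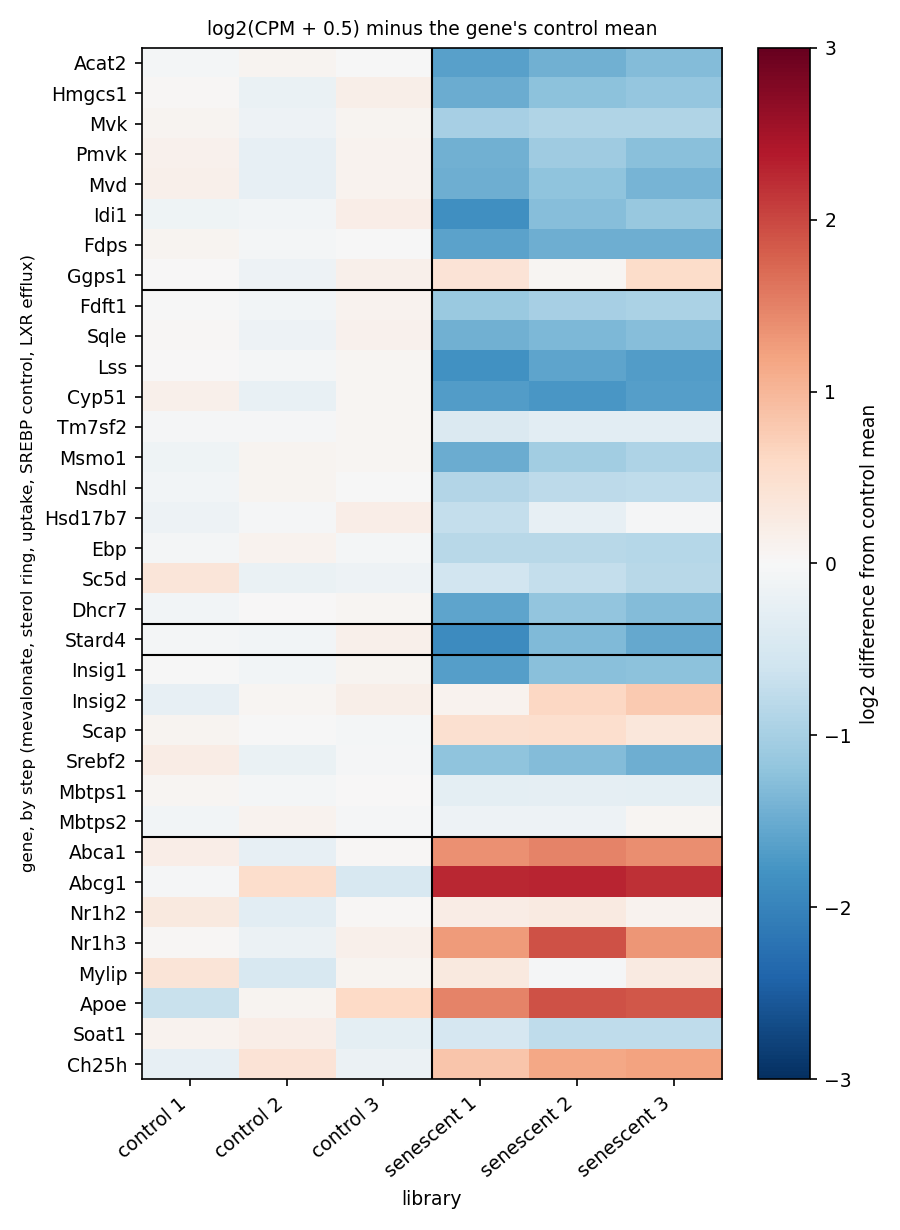
Level of each of the 34 genes (rows, by step) in each of the 6 libraries (columns), coloured by the log2 difference from that gene's control mean on log2(CPM + 0.5). The mevalonate and sterol ring blocks are blue in all 3 senescent libraries except for Ggps1, and for Hsd17b7 in senescent replicate 3, near its control mean. Of the 8 efflux and LXR genes, 5 are red.

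The 19 synthesis enzymes summed to 2029, 1873 and 2117 CPM in control replicates 1 to 3 and to 800.5, 911.8 and 959.3 CPM in senescent replicates 1 to 3. The groups did not overlap, and the senescent mean was 44.4% of the control mean. Of the 19 genes, 17 fell, 0 rose and 2 did not pass the test, with a median log2 fold change of -1.26. In bulk RNA, fewer cells that express a gene and less of its RNA per cell cannot be told apart. Senescent replicate 1 was the lowest of its group for 15 of the 19 genes, and control replicate 2 for 12 of the 19. Proliferation markers were also lower in the senescent group. Within groups they ran the other way at the extremes. Their sum was highest in control replicate 2 (744 CPM) and senescent replicate 1 (81.1 CPM), where the enzymes summed lowest. Mki67, Top2a, Ccna2, Mcm5 and Pcna all fell, their sum was 355 to 744 CPM in control and 62.6 to 81.1 CPM in senescent libraries, and their part in the fall of the enzymes was not tested.

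The mevalonate pathway turns acetyl-CoA into the C5 and longer isoprenoids from which sterols are built. Of its 8 genes 7 fell, with a median log2 fold change of -1.32, and their sum was 41.4% of control. Acat2, the thiolase that opens the pathway, was at 67.9, 74.9 and 71.2 CPM in control replicates 1 to 3 and at 22.9, 25.9 and 28.6 CPM in senescent replicates 1 to 3. Every senescent library was below every control library, with a log2 fold change of -1.46 (SE 0.098, limma, Benjamini-Hochberg adjusted p = 1.32e-04). Hmgcs1, which makes HMG-CoA, was the most abundant of the 8 by CPM, at 329, 283 and 363 CPM in control and 114, 136 and 145 CPM in senescent libraries. The groups were again apart, and the mean fell to 40.5% of control (log2 fold change -1.30, SE 0.12, limma, Benjamini-Hochberg adjusted p = 3.38e-04).

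The kinases and the decarboxylase that follow fell together. Mvk, mevalonate kinase, had 43.1, 36.9 and 43.3 CPM in control and 20.2, 21.6 and 21.5 CPM in senescent libraries, 51.4% of control. Pmvk, which adds the next phosphate, was at 30.6, 23.7 and 30.1 CPM against 10.01, 13.02 and 11.36 CPM, and Mvd, which removes carbon dioxide, was at 38.4% of control. In each of them the groups were apart, with log2 fold changes of -0.94, -1.26 and -1.35 and limma Benjamini-Hochberg adjusted p values of 3.79e-04, 5.91e-04 and 3.53e-04. Idi1, the isomerase that makes the second C5 unit, was at 25.3, 26.6 and 32.3 CPM in control and 7.47, 11.3 and 12.4 CPM in senescent libraries. Its 3 senescent libraries spread by more than those of most enzymes, and the log2 fold change was -1.42 (SE 0.19, limma, Benjamini-Hochberg adjusted p = 0.00116).

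At the branch to sterols and prenyl groups stand 2 prenyl diphosphate synthases, of which 1 fell. Fdps, which makes farnesyl diphosphate, was at 241, 219 and 228 CPM in control and 75.1, 83.3 and 82.9 CPM in senescent libraries. The groups were far apart, with a log2 fold change of -1.51 (SE 0.075) and the smallest adjusted p of the 34 genes (6.77e-05, limma, Benjamini-Hochberg). Ggps1, which lengthens farnesyl to geranylgeranyl diphosphate for protein prenylation, was at 22.6, 20.1 and 25.2 CPM in control and 30.1, 23.3 and 33.1 CPM in senescent libraries. The groups overlapped, and the log2 fold change of 0.33 (95% interval -0.0078 to 0.67) did not pass the test (limma, Benjamini-Hochberg adjusted p = 0.0990). With the replicate number as a block the adjusted p of Ggps1 was 0.0205, each senescent library being above the control library of its number in 3 of 3 pairs, and without senescent replicate 2 it was 0.0385.

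**Figure D2:**
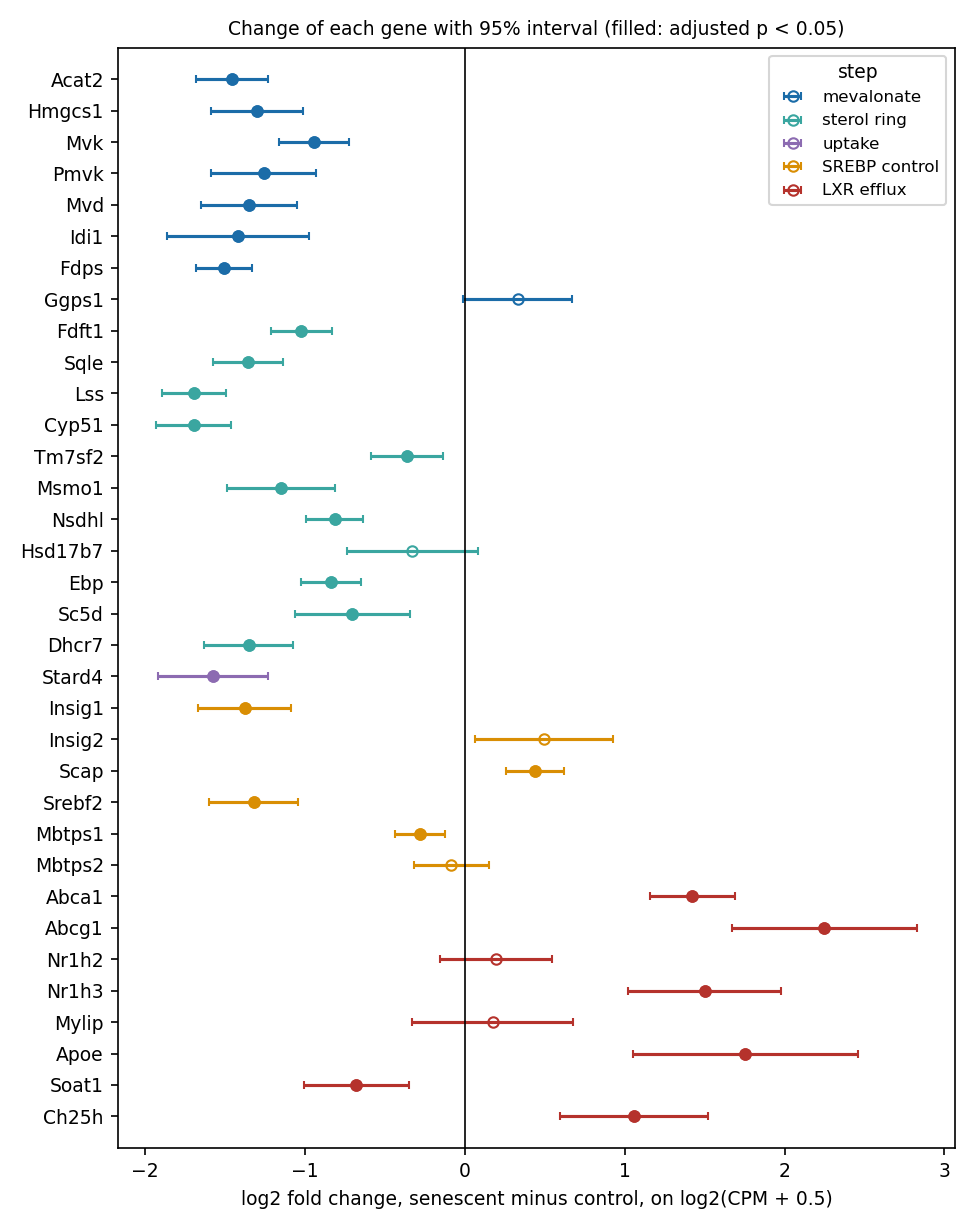
Log2 fold change of each of the 34 genes, senescent minus control, on log2(CPM + 0.5), with its 95% interval from limma (n = 3 per group, colour by step). Filled circles passed an adjusted p under 0.05, and the values run from -1.70 for Lss to 2.25 for Abcg1.

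Of the 11 genes from squalene to cholesterol 10 fell, with a median log2 fold change of -1.02, and the sum was 46.4% of control. Fdft1, squalene synthase and the first step committed to sterols, was at 123, 117 and 134 CPM in control and 57.1, 62.2 and 64.4 CPM in senescent libraries. Its log2 fold change was -1.02 (limma, Benjamini-Hochberg adjusted p = 2.12e-04), and 18.3% of its exon bases are shared with Ctsb on the opposite strand. Sqle, squalene epoxidase, a rate-limiting oxygen-using step, was at 152, 134 and 165 CPM against 54.5, 58.5 and 61.4 CPM. It fell to 38.7% of control, with the groups apart (log2 fold change -1.36, limma, Benjamini-Hochberg adjusted p = 1.43e-04).

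Next come the closing of the sterol ring and the step after it. Lss, lanosterol synthase, was at 107, 101 and 111 CPM in control and 29.6, 35.4 and 32.7 CPM in senescent libraries. Cyp51, the cytochrome P450 that demethylates lanosterol, was at 314, 245 and 297 CPM in control and 87.8, 84.7 and 89.9 CPM in senescent libraries. Each fell to 30.6% of control with no overlap. The log2 fold changes were -1.70 for Lss (SE 0.086) and -1.69 for Cyp51 (SE 0.10), with limma Benjamini-Hochberg adjusted p values of 6.90e-05 and 1.01e-04, and the intervals of the pair overlapped (-1.895 to -1.495 and -1.928 to -1.460).

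In the middle of the pathway the C4 methyl groups are removed by a complex of enzymes. Msmo1, which oxidises the methyl groups at C4, was at 154, 179 and 177 CPM in control and 60.2, 82.3 and 88.6 CPM in senescent libraries, 45.4% of control. Nsdhl, which acts with it, was at 73.6, 82.1 and 76.5 CPM against 41.7, 44.3 and 45.4 CPM, 56.6% of control. Their log2 fold changes were -1.15 and -0.81, with limma Benjamini-Hochberg adjusted p values of 8.94e-04 and 3.25e-04. Hsd17b7, the ketoreductase of the same complex, was at 128.5, 141 and 165 CPM in control and 87.5, 122 and 141 CPM in senescent libraries. The groups overlapped and the log2 fold change of -0.33 (95% interval -0.74 to 0.081) did not pass the test (limma, Benjamini-Hochberg adjusted p = 0.163). All 3 senescent libraries were below the control library of their number, and with the replicate block the adjusted p of Hsd17b7 was 0.0204. Without senescent replicate 1 its log2 fold change was -0.13 (adjusted p = 0.432), and under division by library totals it was -0.12.

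Tm7sf2, a sterol reductase that shares its reaction with Lbr, was at 17.3, 17.2 and 18.6 CPM in control and 12.9, 14.1 and 14.1 CPM in senescent libraries. The groups were apart and the log2 fold change was -0.36 (limma, Benjamini-Hochberg adjusted p = 0.0185). The call on Tm7sf2 was lost without control replicate 3 (adjusted p = 0.0730), senescent replicate 1 (0.0534) or senescent replicate 2 (0.0560), and under division by library totals (0.230). Lbr, the lamin B receptor, which is also a sterol reductase, fell from 51.0 ± 3.97 to 15.6 ± 1.19 CPM (SD, n = 3), a log2 fold change of -1.68. Tm7sf2 shares 12.1% of its exon bases with Vps51 on the same strand.

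The last steps fell as well. Ebp, the sterol isomerase, was at 45.03, 50.5 and 44.6 CPM in control and 26.0, 26.0 and 25.6 CPM in senescent libraries, a log2 fold change of -0.84. Sc5d, the desaturase, was at 65.0, 44.3 and 45.2 CPM against 34.1, 30.5 and 28.4 CPM, with control replicate 1 well above the others, and a log2 fold change of -0.70. Dhcr7, the reductase that makes cholesterol from 7-dehydrocholesterol, was at 37.7, 40.2 and 41.6 CPM against 12.9, 17.4 and 15.9 CPM, a log2 fold change of -1.35. None of these 3 genes overlapped between groups, and their limma Benjamini-Hochberg adjusted p values were 3.53e-04, 0.00846 and 2.93e-04.

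Promoter sequence was set beside these shared changes because the synthesis genes are textbook targets of SREBP2, which binds sterol regulatory elements together with NF-Y at CCAAT boxes and Sp1 at GC boxes. RefSeq (GRCm38.p6) gave 38 promoters for 29 of the 34 genes, each 250 bases before to 50 after the transcript start, and all were searched on both strands. Fdps, Fdft1, Sqle, Stard4 and Abcg1 had no entry. The sterol regulatory element TCACNCCAC was found for 1 of the 29 genes, Hmgcs1, at -137 to -129 from the start, against 1.44% of the 27025 genes in the table (1.24% of all 32851 promoters). A gene was counted when any of its listed promoters held a match. CCAAT was found for 15 of 16 synthesis genes, all but Acat2, against 41.1% of all genes (37.4% of all promoters) and 43% of the genes tested here. By step it was found for 6 of 7 mevalonate, 9 of 9 sterol ring, 3 of 6 SREBP control and 2 of 7 LXR efflux genes. Among all genes tested it was found for 46.6% of those that fell and 41.1% of those that rose. The 15 genes include Ggps1 and Hsd17b7, which did not pass the test. The GC box GGGCGG was found for 14 of 16 synthesis genes, against 38.2% of all genes (35.7% of all promoters) and 68.7% of genes tested. The classical LXR element was searched only as an exact direct repeat of AGGTCA with 4 bases between. It was found for 0 of the 29 genes and 0.0148% of all genes (0.0152% of all promoters). Of the 10131 genes tested that had a promoter, 0 held it, so this search could not set the members apart. Elements that differ from these letters were not searched. A match is a description of letters and not a bound site.

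**Figure D3:**
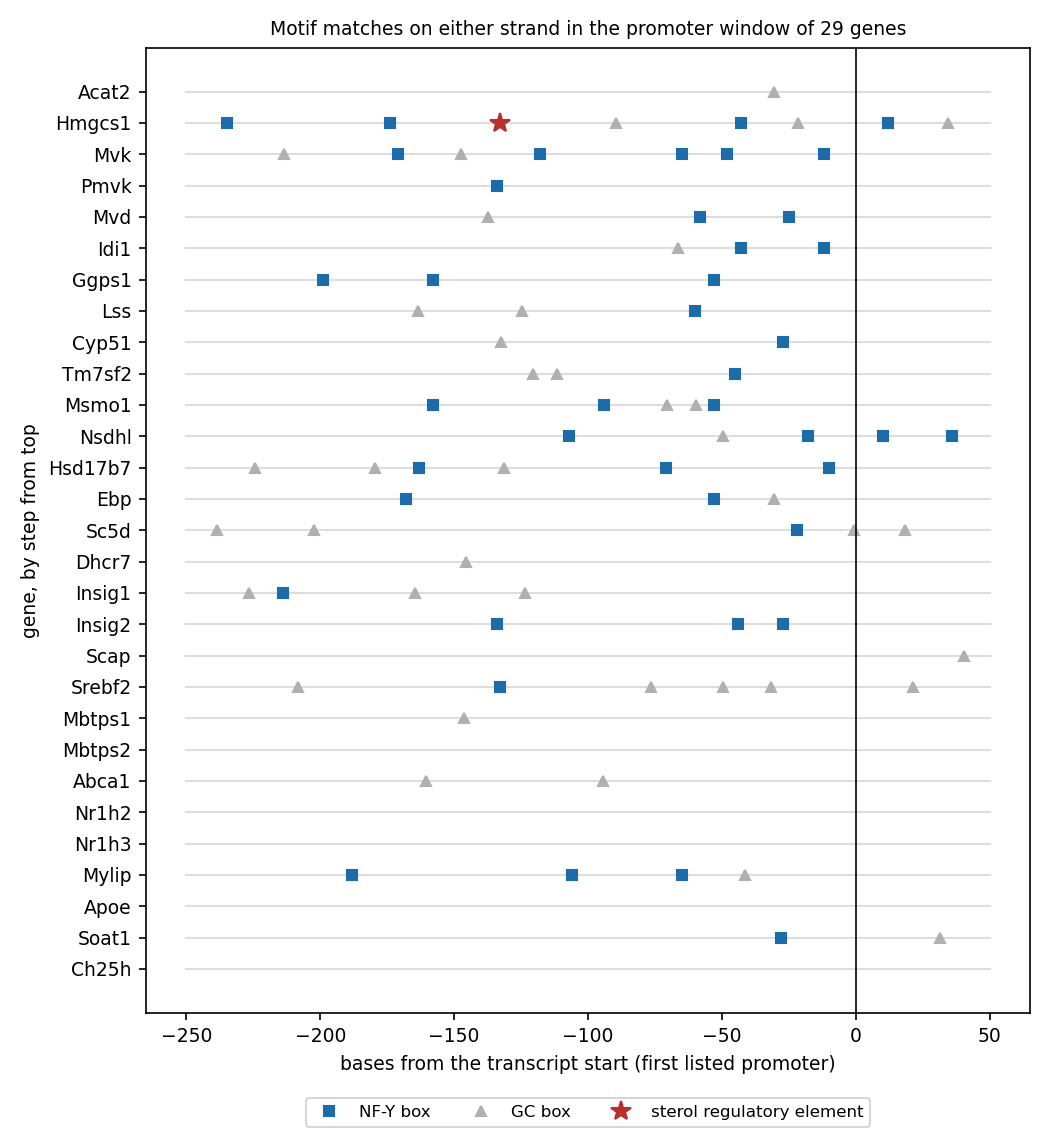
Matches to the CCAAT (NF-Y) box, the GC box and the sterol regulatory element on either strand, by distance in bases from the transcript start, in the first listed RefSeq promoter of 29 genes. NF-Y boxes lie in the windows of nearly all synthesis genes. The single match to TCACNCCAC, the form of the sterol regulatory element searched, is in Hmgcs1. Dhcr7 shows none because its CCAAT matches are in another listed promoter.

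The promoters of 7 genes are shown 5′ to 3′ on the gene's own strand, from up to 250 bases before the RefSeq start and outside exons of coding genes, with CCAAT (or ATTGG, the same box on the other strand) and the sterol regulatory element in capitals. Hmgcs1 carries the only TCACNCCAC match, Mvk holds 5 CCAAT boxes, Lss fell to 30.6% of control, and Ebp stands for the last steps. Insig1, Insig2 and Abca1 are shown for comparison, as genes of sterol control and efflux. The windows are chr13:119690101-119690350 on the plus strand for Hmgcs1, chr5:114444061-114444268 on the plus strand for Mvk, chr10:76531355-76531587 on the plus strand for Lss, chrX:8193513-8193762 on the minus strand for Ebp, chr5:28071162-28071362 on the plus strand for Insig1, chr1:121332590-121332839 on the minus strand for Insig2 and chr4:53159896-53160145 on the minus strand for Abca1.
Hmgcs1: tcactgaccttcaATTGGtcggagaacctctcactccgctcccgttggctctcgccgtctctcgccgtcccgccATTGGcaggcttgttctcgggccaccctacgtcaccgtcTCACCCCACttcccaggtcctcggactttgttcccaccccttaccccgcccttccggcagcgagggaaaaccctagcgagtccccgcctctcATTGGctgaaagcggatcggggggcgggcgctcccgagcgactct
Mvk: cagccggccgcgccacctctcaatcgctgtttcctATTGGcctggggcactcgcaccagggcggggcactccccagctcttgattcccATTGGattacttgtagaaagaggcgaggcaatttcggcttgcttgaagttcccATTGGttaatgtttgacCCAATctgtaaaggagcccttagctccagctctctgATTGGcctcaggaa
Lss: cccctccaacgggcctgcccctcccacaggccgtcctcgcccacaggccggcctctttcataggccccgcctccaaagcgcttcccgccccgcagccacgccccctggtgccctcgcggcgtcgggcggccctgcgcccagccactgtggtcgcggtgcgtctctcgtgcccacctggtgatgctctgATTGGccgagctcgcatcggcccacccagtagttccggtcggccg
Ebp: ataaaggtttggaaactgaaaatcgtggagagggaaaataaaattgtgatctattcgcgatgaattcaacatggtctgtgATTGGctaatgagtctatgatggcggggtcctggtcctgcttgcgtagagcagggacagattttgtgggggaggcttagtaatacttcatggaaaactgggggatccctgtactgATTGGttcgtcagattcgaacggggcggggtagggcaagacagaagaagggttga
Insig1: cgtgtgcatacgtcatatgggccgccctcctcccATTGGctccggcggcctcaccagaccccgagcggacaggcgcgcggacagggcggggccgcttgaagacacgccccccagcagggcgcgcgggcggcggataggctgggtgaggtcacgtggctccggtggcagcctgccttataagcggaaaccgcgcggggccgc
Insig2: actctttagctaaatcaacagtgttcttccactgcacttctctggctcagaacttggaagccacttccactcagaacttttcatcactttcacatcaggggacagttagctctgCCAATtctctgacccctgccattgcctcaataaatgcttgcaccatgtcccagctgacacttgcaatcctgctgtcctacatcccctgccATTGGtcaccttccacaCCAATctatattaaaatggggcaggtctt
Abca1: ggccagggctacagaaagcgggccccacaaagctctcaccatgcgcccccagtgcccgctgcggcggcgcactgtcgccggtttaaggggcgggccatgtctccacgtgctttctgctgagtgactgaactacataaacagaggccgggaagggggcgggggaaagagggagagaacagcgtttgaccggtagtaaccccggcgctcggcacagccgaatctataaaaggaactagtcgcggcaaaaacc

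Insig1 and Insig2 hold 1 and 3 CCAAT boxes in these windows, and Abca1, which rose, holds 0. The Insig2 window is that of its first listed promoter, and the matches in its promoters 2 and 3 are GC boxes only.

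Stard4, a soluble carrier that moves cholesterol between membranes, was the only gene placed in uptake and transport. It was at 61.1, 60.2 and 70.7 CPM in control and 16.9, 25.4 and 21.8 CPM in senescent libraries. The groups were far apart, and the mean fell to 33.4% of control (log2 fold change -1.58, SE 0.15, limma, Benjamini-Hochberg adjusted p = 3.35e-04).

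The 6 genes that control SREBP moved in both directions, with 3 falling and 1 rising. Their median log2 fold change was -0.18, and it was 0.029 under division by library totals alone. Srebf2, which encodes SREBP2 itself, was at 272, 202 and 228.5 CPM in control and 100.5, 94.3 and 84.0 CPM in senescent libraries. All senescent libraries were below all controls, and the mean fell to 39.7% of control (log2 fold change -1.32, SE 0.12, limma, Benjamini-Hochberg adjusted p = 3.07e-04). Scap, the escort and sterol sensor, was at 85.9, 80.9 and 78.3 CPM in control and 114, 116 and 103 CPM in senescent libraries. Scap rose, with the groups apart and a log2 fold change of 0.44 (SE 0.077, limma, Benjamini-Hochberg adjusted p = 0.00335).

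Of the 2 INSIG genes, whose proteins retain SCAP, 1 fell. Insig1, itself a target of SREBP2, was at 151, 142 and 161 CPM in control and 47.4, 63.5 and 64.7 CPM in senescent libraries. It fell to 38.6% of control (log2 fold change -1.38, SE 0.13, limma, Benjamini-Hochberg adjusted p = 3.08e-04). Insig2 was at 33.7, 42.0 and 45.3 CPM in control and 42.9, 61.6 and 68.8 CPM in senescent libraries. The groups overlapped through senescent replicate 1, and the log2 fold change of 0.50 (95% interval 0.066 to 0.93) did not pass the test (limma, Benjamini-Hochberg adjusted p = 0.0600). Each senescent library was above the control library of its number, and with the replicate block the adjusted p of Insig2 was 0.00302. Without senescent replicate 1 it was 0.0104, and without senescent replicate 3 it was 0.198. On recovered reads the adjusted p of Insig2 was 0.0457 with edgeR quasi-likelihood and 0.0139 with DESeq2. In limma it was 0.0182 under division by library totals, 0.0408 under quantile normalization and 0.0104 with array weights. It stayed above 0.05 in the remaining settings, such as 0.0549 under median-of-ratios scaling.

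The balance of the INSIG pair was taken within each library. The log2 ratio of Insig1 to Insig2 was 2.15, 1.75 and 1.82 in control and 0.14, 0.043 and -0.089 in senescent libraries. It was 1.91 ± 0.21 in control and 0.032 ± 0.12 in senescent FAPs (SD, n = 3), a difference of -1.87 with the groups apart (two-sided exact permutation p = 0.1, adjusted over 4 pairs of genes 0.133). The smallest p that 3 against 3 can give is 0.1, so no pair could reach 0.05. These are ratios of CPM and not of molecules, and the genes differ in length.

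Of the 2 proteases in the Golgi that release SREBP2, 1 fell. Mbtps1, the site-1 protease, was at 238, 217 and 229 CPM in control and 187, 190 and 186 CPM in senescent libraries. The groups were apart, and the log2 fold change was -0.28 (limma, Benjamini-Hochberg adjusted p = 0.0125). The call on Mbtps1 was lost under division by library totals (adjusted p = 0.438), quantile normalization (0.173) and without senescent replicate 2 (0.0504). Mbtps2, the site-2 protease, was at 23.9, 27.5 and 24.9 CPM against 22.8, 22.7 and 26.4 CPM. Its groups overlapped, with a log2 fold change of -0.084 (95% interval -0.32 to 0.15) that was 0.12 under division by library totals and -0.15 without senescent replicate 3, and 28.4% of its exon bases are shared with Yy2 on the same strand. The log2 ratio of Mbtps1 to Mbtps2 differed by -0.20 between senescent and control FAPs, with overlap (two-sided exact permutation p = 0.3).

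**Figure D4:**
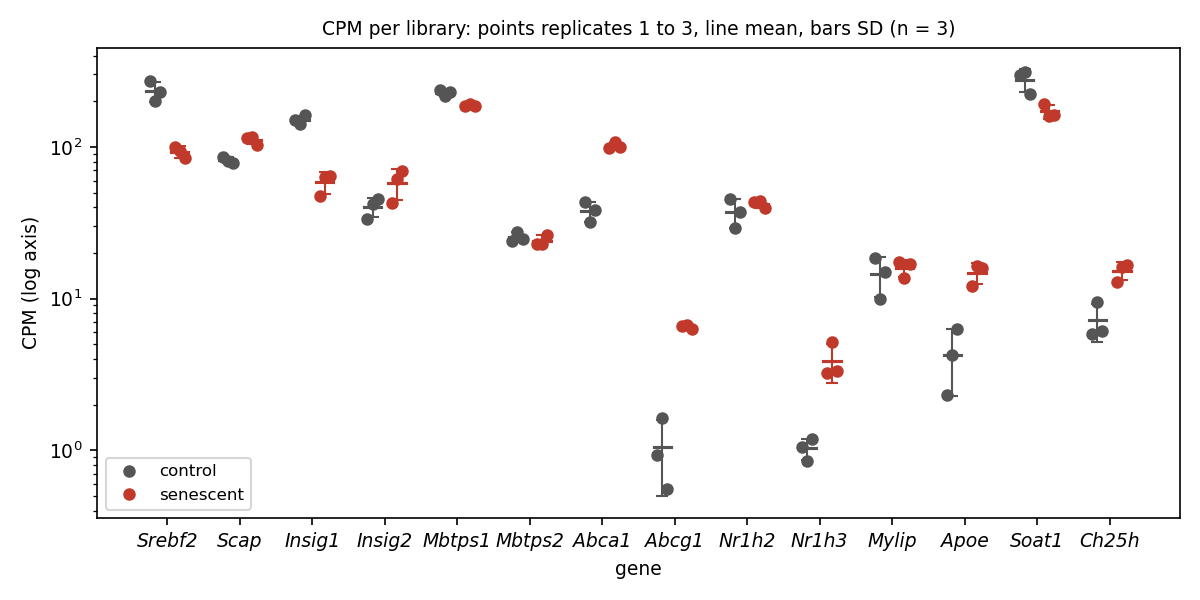
CPM on a log axis of the 6 SREBP control genes and the 8 efflux and LXR genes, with points for the 3 control (grey) and 3 senescent (red) libraries, lines at the mean and bars of 1 SD. Srebf2, Insig1, Mbtps1 and Soat1 fall without overlap. Scap, Abca1, Abcg1, Nr1h3, Apoe and Ch25h rise without overlap, and Insig2, Mbtps2, Nr1h2 and Mylip overlap.

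Of the 8 genes of efflux, storage and the LXRs 5 rose and 1 fell, with a median log2 fold change of 1.24. Their summed CPM was 97.9% of control, and Soat1, the gene that fell, had the highest CPM of the 8. Abca1, the exporter that loads cholesterol onto apolipoprotein A-I, was at 43.2, 31.8 and 38.5 CPM in control and 97.9, 107 and 99.8 CPM in senescent libraries. The mean rose to 268% of control with the groups apart (log2 fold change 1.42, SE 0.11, limma, Benjamini-Hochberg adjusted p = 2.29e-04). Abcg1, which exports to high-density lipoprotein, was at 0.937, 1.64 and 0.556 CPM in control and 6.59, 6.71 and 6.30 CPM in senescent libraries. Control libraries held 31 to 86 reads on Abcg1 and senescent libraries 280 to 401. It rose to 626% of control on CPM means, with a log2 fold change of 2.25 (SE 0.25, limma, Benjamini-Hochberg adjusted p = 5.52e-04) that the pseudocount of 0.5 makes smaller, and that was 2.005 without control replicate 3, the library with 31 reads.

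Apoe, the apolipoprotein that accepts exported cholesterol, was at 2.32, 4.22 and 6.28 CPM in control and 12.03, 16.5 and 15.8 CPM in senescent libraries. Its controls spread widely, and the groups were still apart, with a log2 fold change of 1.76 (SE 0.30, limma, Benjamini-Hochberg adjusted p = 0.00315). Ch25h, which makes the oxysterol 25-hydroxycholesterol, was at 5.87, 9.53 and 6.16 CPM against 12.9, 16.2 and 16.7 CPM. It rose by a log2 fold change of 1.06 (SE 0.20, limma, Benjamini-Hochberg adjusted p = 0.00439). Ch25h is a gene of a single exon, and 11.5% of it is shared with Gm26902 on the opposite strand.

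Of the 2 LXR genes 1 rose. Nr1h3, which encodes LXRα, was at 1.05, 0.856 and 1.18 CPM in control and 3.22, 5.19 and 3.31 CPM in senescent libraries, on 45 to 66 and 147 to 310 reads. It rose to 379% of control with the groups apart (log2 fold change 1.503, SE 0.21, limma, Benjamini-Hochberg adjusted p = 0.00122). Nr1h2, which encodes LXRβ, was at 45.4, 29.3 and 37.4 CPM in control and 43.1, 44.2 and 39.4 CPM in senescent libraries. Its groups overlapped, with a log2 fold change of 0.20 (95% interval -0.16 to 0.55) that was 0.033 without control replicate 2 and 0.34 without control replicate 1. The log2 ratio of Nr1h2 to Nr1h3 was 4.61 ± 0.24 in control and 3.31 ± 0.30 in senescent FAPs (SD, n = 3), and that of Abca1 to Abcg1 was 4.68 ± 0.68 and 3.86 ± 0.057. The differences were -1.31 and -0.83 (two-sided exact permutation p = 0.1 each, adjusted over 4 pairs 0.133). For Abca1 to Abcg1 the groups nearly met, at 3.92 in control replicate 2 and 3.90 in senescent replicate 2. They overlapped with a pseudocount of 1 (difference -0.51, exact permutation p = 0.4), under quantile normalization (-0.59, p = 0.4) and under division by library totals (-0.78, p = 0.2).

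The other 2 genes of this step did not rise. Mylip, the ubiquitin ligase that LXR induces to degrade lipoprotein receptors, was at 18.5, 9.98 and 15.0 CPM in control and 17.4, 13.6 and 17.01 CPM in senescent libraries. Its groups overlapped, and the log2 fold change of 0.18 (95% interval -0.33 to 0.68) was -0.060 without control replicate 2. Soat1, which esterifies cholesterol for storage, was at 296, 313 and 222 CPM in control and 192.5, 160 and 162 CPM in senescent libraries. It fell to 62.0% of control with the groups apart (log2 fold change -0.68, SE 0.14, limma, Benjamini-Hochberg adjusted p = 0.00678). The summed leukocyte markers were higher in every senescent library than in every control library, like the 5 genes that rose here. Their part in the rise of these genes was not tested.

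**Figure D5:**
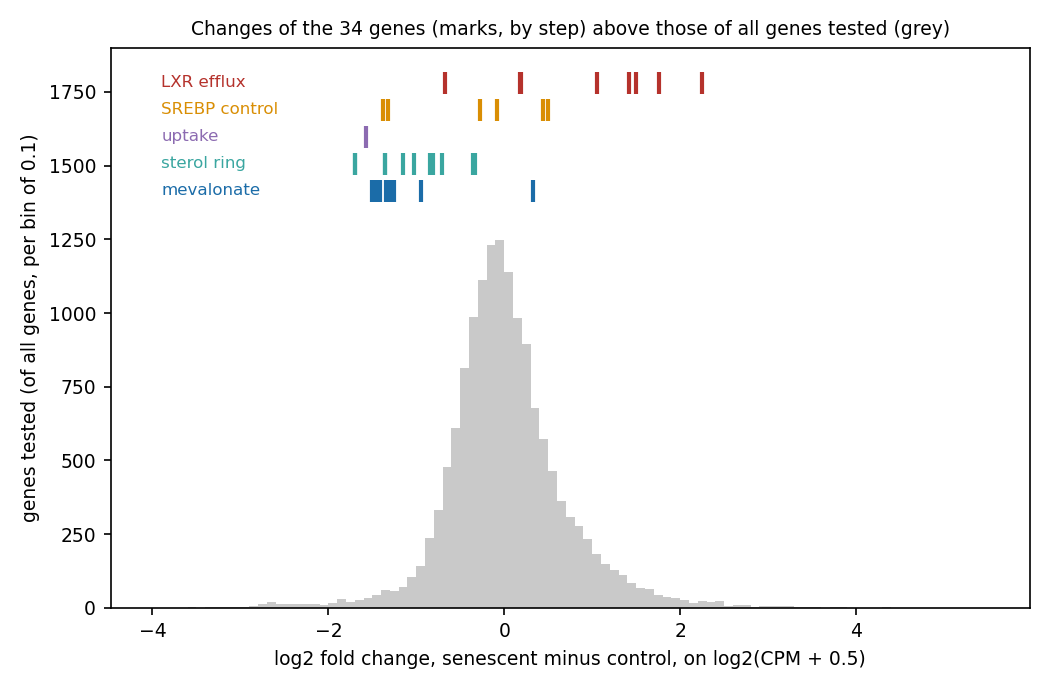
Log2 fold changes of the 34 genes as marks by step, above the histogram of all 14776 genes tested (bins of 0.1). Synthesis marks and the uptake mark, which is Stard4 alone, lie below 0 except that of Ggps1. Those of Hsd17b7 (-0.33) and Tm7sf2 (-0.36) lie within the bulk of genes. SREBP control marks lie on both sides, and 5 of 8 efflux and LXR marks lie beyond 1.

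Genes next to the 34 in the pathway were described from lists by role. In the branches that leave farnesyl diphosphate for ubiquinone, dolichol and prenylated proteins, 3 of 7 fell and 0 rose. Pdss1, which builds the ubiquinone tail, fell to 35.8% of control (log2 fold change -1.28), and Fntb and Dhdds fell by 0.33 and 0.25 on the log2 scale. Acat1, a mitochondrial thiolase, fell with a log2 fold change of -0.53.

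Among 12 lipoprotein receptors, lysosomal and transport genes, 4 fell and 4 rose. Lrp8 and Scarb1, receptors for apolipoprotein E and for high-density lipoprotein, fell to 37.1% and 44.2% of control, and Lrp1 and Osbp fell by 0.44 and 0.51 on the log2 scale. Npc2, which carries cholesterol out of the lysosome, rose from 515 ± 67.7 to 823 ± 100.2 CPM (SD, n = 3), and Lipa, the acid lipase of the lysosome, rose by a log2 fold change of 0.30. Gramd1b and Gramd1c, which move cholesterol from the plasma membrane, had log2 fold changes of 0.73 and 0.74. Vldlr was at 76.5, 35.3 and 76.4 CPM in control and 37.7, 35.0 and 40.7 CPM in senescent libraries and did not pass the test (limma, Benjamini-Hochberg adjusted p = 0.0938).

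Of 5 further LXR targets and sterol hydroxylases 3 rose and 1 fell. Pltp, the phospholipid transfer protein of plasma, rose with a log2 fold change of 1.30. Smpdl3a, a phosphodiesterase, and Cyp27a1, which makes 27-hydroxycholesterol, rose by log2 fold changes of 1.01 and 1.57, the latter from 25 to 32 reads in control libraries to 122 to 139 in senescent libraries. Lpcat3, which adds polyunsaturated chains to phospholipids, fell, with a log2 fold change of -0.69, and Cyp7b1 had a log2 fold change of -0.26 and did not pass the test. The counts of these lists can be read against the 24.3% and 21.8% of all genes that fell and rose.

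Where a gene lies bears on how its reads could be shared. In GENCODE M21 (GRCm38), 12 of the 34 genes share exon bases with another gene, 8 with a gene on the opposite strand and 4 with a gene on the same strand, and whether the counting used strand is not known. Mbtps2 and Fdps share the largest parts, Fdps 26.7% with Gm43738 on the same strand. Lss lies at chr10:76531588-76557138, Cyp51 at chr5:4081145-4104746, Fdps at chr3:89093588-89101959, Srebf2 at chr15:82147181-82205379, Insig1 at chr5:28071363-28078662, Abca1 at chr4:53030787-53159895 and Abcg1 at chr17:31057675-31117988. All of them are protein-coding.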

How the data were processed

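RNA was sequenced from 3 control and 3 senescent FAP libraries, grouped and numbered from the sample titles. The authors made libraries with the TruSeq Stranded mRNA kit, counted reads and scaled them in edgeR (3.10, R 3.6.0, mm10, per the submitters' processing notes). Each deposited value is a signal, the CPM computed on edgeR's effective library size. The aligner, counter and annotation are not given in the sources used here, nor is use of strand. Whole reads were recovered for 100% of values (tolerance 0.01), 41412179 to 59912520 per library, and 1 read was worth 0.0167 to 0.0225 CPM. Intervals cover the spread between these libraries. The line naming no gene held 0.0041% to 0.0070% of reads and was left out.

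Genes reaching 0.5 CPM in 3 or more libraries (14776 of 16894) entered a two-sided limma test (3.58.1, R 4.3.3) of log2(CPM + 0.5) with a variance trend, Benjamini-Hochberg adjusted over all genes tested. The plan assumed CPM, and the same test was kept. The script recovered known changes when tested on simulated data, in which far fewer genes changed than here and replicates were independent. Fold changes are on the log2(CPM + 0.5) scale, which understates those of low genes. Alternatives were pseudocounts of 0.1 and 1, no filter or 2 CPM, median-of-ratios, library-total and quantile scaling, no variance trend, array weights, a replicate block, leaving out each library, edgeR 4.0.16 quasi-likelihood and DESeq2 1.42.0 on recovered reads.

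Same-numbered replicates deviated together from their group means (correlations 0.537, 0.308 and 0.207), and other combinations gave -0.357 to 0.153. The numbers were therefore used as pairs in 1 alternative, the replicate block. The fit reported and the permutation tests did not use pairs. This pairing comes from the data and not from the labels. Chi-square per gene between replicates was 15.1 to 163, so no library repeated another. The members and lists were chosen with earlier results of these data known, and the rule for naming genes was all 34 members and genes of the fixed lists. The 7 promoters printed were chosen after the values were seen. Promoters came from RefSeq (GRCm38.p6) and positions from GENCODE M21. A list of genes of sterol sensing is not reported here. No other gene of the pathway was described here.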

Additional observations from a re-analysis of the deposited data

How the results depend on the processing

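Over 18 alternatives, 20 to 23 of the 34 genes fell and 6 to 8 rose, and 20 to 22 of the 22 genes that fell in the fit reported remained lower. The median log2 fold change of the 34 genes moved most under division by library totals alone, to -0.62, while the medians of the steps were -1.11 (mevalonate), -0.81 (sterol ring), 0.029 (SREBP control, reversed) and 1.448 (LXR efflux). Reversed single genes were Mbtps2 at 0.12 under library totals, and Mylip at -0.025 with array weights and -0.060 without control replicate 2, in a range of -0.060 to 0.37 (without control replicate 1) when leaving out libraries. Neither reversed gene passed the test, and the cause was not tested. With the replicate block, 23 genes fell and 8 rose, the paired fit added calls for Ggps1 (0.33), Hsd17b7 (-0.33) and Insig2 (0.50), and it changed no other call among the 34. Calls on Tm7sf2, Mbtps1, Ggps1, Hsd17b7 and Insig2 depended on the setting. The 95% intervals of the 6 genes that did not pass reached -0.74 and 0.93, so a missed threshold does not show equal levels. Abcg1 and Nr1h3 rested on under 100 reads in each control library.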
